A study of Mus musculus with 6 samples.

Results

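Members of the Meis, Pbx and Pknox gene families, Meis1, Meis2, Meis3, Pbx2, Pbx3 and Pknox2, are the subject here, in the open chromatin of the mouse palate. These 6 genes were taken by name from 21911 annotated protein-coding genes. For each, all ATAC-seq peaks were counted whose midpoint fell in the gene body or within 100 kb of its start site. Such a stretch is called the window of the gene. The palate epithelium, basal layer and periderm together, was peeled by hand from the palatal shelves of C57BL/6 embryos at E14.5 after trypsin, and the palate mesenchyme is the tissue that was left. There were 3 epithelium and 3 mesenchyme libraries of about 20000 cells each, and the labels name no genetic change or drug in either group. The mesenchyme libraries were bulk tissue, made up mostly but not wholly of mesenchymal cells, and the sources differ on what a replicate came from, with 3 embryos in the series design, 5 palatal shelves in the treatment protocol and another number of embryos in the methods.

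Meis, Pbx and Pknox proteins are homeodomain factors of the TALE class, named for extra amino acids in a loop of the homeodomain. Pbx proteins pair with Meis or Pknox proteins, and these pairs bind DNA beside Hox and other homeodomain factors. In the mouse face, Pbx factors of the surface ectoderm act upstream of Wnt genes and Trp63 during fusion of the lip, and Meis2 is needed for the craniofacial derivatives of the neural crest. ATAC-seq uses the Tn5 transposase to cut accessible DNA, so a peak marks a nucleosome-free region (NFR) and does not measure expression of the gene.

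The 6 peak lists held 270003 to 349322 peaks, which covered 125 to 169 Mb. Peaks of the 6 libraries that overlapped were merged, and the 342690 merged regions seen in 2 or more libraries are called kept regions. A region with a peak in every epithelium library and no mesenchyme library is called epithelium-only here, and the reverse mesenchyme-only. Of the kept regions, 336 lay in the windows of the 6 genes, and no region was shared between their windows. Among these 336 regions, 15 were epithelium-only, 3 were mesenchyme-only and 86 were found in all 6 libraries. Over the genome, 2.98% of kept regions were epithelium-only, 2.2% were mesenchyme-only and 19.1% were found in all 6 libraries. Where a list has no peak the site may still be weakly open, under the threshold of the peak caller, and in bulk tissue fewer cells with an open site cannot be told apart from weaker opening in each cell.

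The description turns on the regions of one tissue. The middle 200 bp of 7 epithelium-only and 2 mesenchyme-only regions are printed here from the plus strand of GRCm38, the assembly behind mm10, chosen to show regions with and without motif matches in both tissues. Capitals mark matches, on either strand, to the letters TGACAG (MEIS), TGATTNAT (HOX-PBX), AACCNGTT (GRHL), GCCNNNGGC (TFAP2) or TGTGGTT (RUNX), where N is any base. Introns are numbered along the longest protein-coding transcript.
Meis1 intron 9, chr11:18898457-18898656: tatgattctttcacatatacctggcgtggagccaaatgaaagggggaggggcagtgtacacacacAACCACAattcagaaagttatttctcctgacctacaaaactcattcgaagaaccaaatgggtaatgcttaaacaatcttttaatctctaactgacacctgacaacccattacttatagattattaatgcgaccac
Meis1 far upstream, chr11:19112310-19112509: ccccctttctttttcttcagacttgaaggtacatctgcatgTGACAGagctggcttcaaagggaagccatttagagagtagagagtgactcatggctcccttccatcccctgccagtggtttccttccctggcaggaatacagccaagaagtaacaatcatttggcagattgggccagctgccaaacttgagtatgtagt
Meis2 intron 9 near the 3′ end, chr2:115872909-115873108: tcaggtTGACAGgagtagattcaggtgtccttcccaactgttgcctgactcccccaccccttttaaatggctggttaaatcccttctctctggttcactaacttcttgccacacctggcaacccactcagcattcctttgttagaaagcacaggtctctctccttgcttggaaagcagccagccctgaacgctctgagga
Meis2 intron 9 second region, chr2:115876135-115876334: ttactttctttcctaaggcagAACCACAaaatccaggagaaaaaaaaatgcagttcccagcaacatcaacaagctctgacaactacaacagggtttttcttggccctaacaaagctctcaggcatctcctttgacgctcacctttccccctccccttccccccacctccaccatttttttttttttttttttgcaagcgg
Meis2 intron 6, chr2:116056061-116056260: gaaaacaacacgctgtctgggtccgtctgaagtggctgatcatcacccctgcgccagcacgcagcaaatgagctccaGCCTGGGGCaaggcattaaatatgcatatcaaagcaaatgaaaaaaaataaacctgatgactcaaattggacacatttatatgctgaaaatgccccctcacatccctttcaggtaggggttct
Meis2 upstream, chr2:116095977-116096176: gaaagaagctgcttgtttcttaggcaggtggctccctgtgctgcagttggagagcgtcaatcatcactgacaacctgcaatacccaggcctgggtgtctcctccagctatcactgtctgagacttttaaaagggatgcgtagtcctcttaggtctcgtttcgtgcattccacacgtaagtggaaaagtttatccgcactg
Pbx3 intron 2, chr2:34356000-34356199: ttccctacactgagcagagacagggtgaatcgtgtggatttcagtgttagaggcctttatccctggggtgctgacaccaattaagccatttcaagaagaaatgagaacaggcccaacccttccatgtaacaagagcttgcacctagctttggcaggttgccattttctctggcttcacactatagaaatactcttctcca
Meis2 intron 8 of mesenchyme, chr2:115959323-115959522: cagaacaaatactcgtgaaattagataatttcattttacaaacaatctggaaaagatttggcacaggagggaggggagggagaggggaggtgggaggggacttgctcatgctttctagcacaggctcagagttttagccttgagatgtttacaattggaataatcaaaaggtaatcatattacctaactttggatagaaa
Pknox2 intron 2 of mesenchyme, chr9:37082045-37082244: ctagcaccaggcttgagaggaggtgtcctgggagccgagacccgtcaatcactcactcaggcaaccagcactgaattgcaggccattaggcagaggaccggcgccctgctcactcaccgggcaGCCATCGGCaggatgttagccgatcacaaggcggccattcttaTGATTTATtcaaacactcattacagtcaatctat

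The MEIS letters stood in the far upstream region of Meis1 at chr11:19112351-19112356 and near the start of the first Meis2 sequence. The RUNX letters stood on the minus strand in Meis1 intron 9 and in the second Meis2 region. The mesenchyme-only sequence of Pknox2 held a TFAP2 match and the HOX-PBX match TGATTTAT at chr9:37082211-37082218. The TFAP2 letters stood in Meis2 intron 6. The Meis2 upstream, Pbx3 and Meis2 intron 8 sequences held no match to these letters.

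In the palate epithelium, the windows of Meis1 and Meis2 held more open chromatin than in the mesenchyme, and they held 11 of the 15 epithelium-only regions. Measured as the number of peaks, the main test, neither gene passed across all genes. Measured as base pairs covered by peaks, one of the alternatives, both did. The windows of Meis3, Pbx2 and Pknox2 were peak-rich with 1 region of one tissue each at Meis3 and Pbx2 and 2 at Pknox2, and that of Pbx3 was peak-poor. Each of the 6 genes had a start site in a merged region found in all 6 libraries.

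Meis1 (ENSMUSG00000020160.18), a cofactor of Hox proteins known from limb, eye and blood development, lies on the minus strand of chromosome 11 from 18879817 to 19018985. No other protein-coding start site fell in its window of 239 kb. Epithelium libraries 1 to 3 had 25, 29 and 25 peaks in this window, against 24, 15 and 16 in mesenchyme libraries 1 to 3. Each epithelium library was above each mesenchyme library, with mesenchyme 1 close to the epithelium values. After scaling to list length the groups still did not overlap, which held for 1 of the 6 genes in this direction and for 9.09% of all genes tested. The mean number of peaks was 26.3 ± 2.31 in epithelium, against 18.3 ± 4.93 in mesenchyme (SD, n = 3 each). The log2 difference in scaled peaks, epithelium minus mesenchyme, was 0.58 ± 0.21 (SE), with an adjusted p from limma of 0.118 over 21723 genes. It passed the threshold of 0.05 only when mesenchyme 1 was left out (0.83, limma adjusted p = 0.0393), and with a single library left out it was smallest at 0.41, without mesenchyme 2.

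The peaks at Meis1 covered 12.8, 15.96 and 12.4 kb in the epithelium libraries, against 9.36, 7.20 and 8.05 kb in the mesenchyme libraries. These unscaled values did not overlap, and the share of all genes without such overlap was not counted. After scaling to the covered length of each list, the log2 difference in covered kb was 0.78 ± 0.16 (SE, limma adjusted p = 0.00192). Meis1 and Meis2 were the 2 of 6 genes that passed this test upward, a direction in which 6.28% of all genes passed, and 7.58% passed downward, none of the 6 among them. Upstream of the gene the peak numbers of the tissues did not overlap, with 14, 13 and 15 in the epithelium libraries and 10, 8 and 7 in the mesenchyme libraries. The gene body held 11, 16 and 10 peaks in the epithelium libraries against 14, 7 and 9 in the mesenchyme libraries. These overlapped, with means of 12.3 and 10.0. Neither part of the window was set beside all genes.

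Meis2 (ENSMUSG00000027210.20), linked to cleft palate and heart defects in people who lack one copy, lies on the minus strand of chromosome 2 from 115863064 to 116065839, and it too was alone in its window of 303 kb. It had 41, 47 and 26 peaks in the epithelium libraries, against 27, 24 and 24 in the mesenchyme libraries. Epithelium 1 and 2 stood well above every mesenchyme library, while epithelium 3 lay within the mesenchyme range. The mean number of peaks was 38.0 ± 10.8 in epithelium, against 25.0 ± 1.73 in mesenchyme (SD, n = 3 each). The log2 difference in scaled peaks was 0.61 ± 0.19 (SE, limma adjusted p = 0.0604). The call depended on single libraries, with an adjusted p from limma of 0.0209 without epithelium 3 (0.83), 0.048 without mesenchyme 1 (0.71) and 0.283 without epithelium 1 (0.45).

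Covered length separated the tissues at Meis2 more evenly than peak number did. Peaks covered 17.6, 23.1 and 14.9 kb in the epithelium libraries, against 11.98, 11.94 and 12.9 kb in the mesenchyme libraries. These unscaled values did not overlap, again without a share of all genes beside them. The log2 difference in covered kb was 0.64 ± 0.15 (SE, limma adjusted p = 0.0039). The gene body held 27, 37 and 18 peaks in epithelium against 20, 17 and 18 in mesenchyme, which overlapped, and the upstream side held 14, 10 and 8 in epithelium against 7, 7 and 6 in mesenchyme, which did not. As at Meis1, neither part of the window was set beside all genes. Chromosomes 2 and 11 held a smaller share of all peaks in epithelium, 7.79% against 8.19% in mesenchyme for chromosome 2 and 7.04% against 7.76% for chromosome 11. When peak numbers were scaled to the same chromosome, the log2 difference was 0.68 at Meis2 (limma adjusted p = 0.0416) and 0.72 at Meis1 (limma adjusted p = 0.0591).

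**Figure D1:**
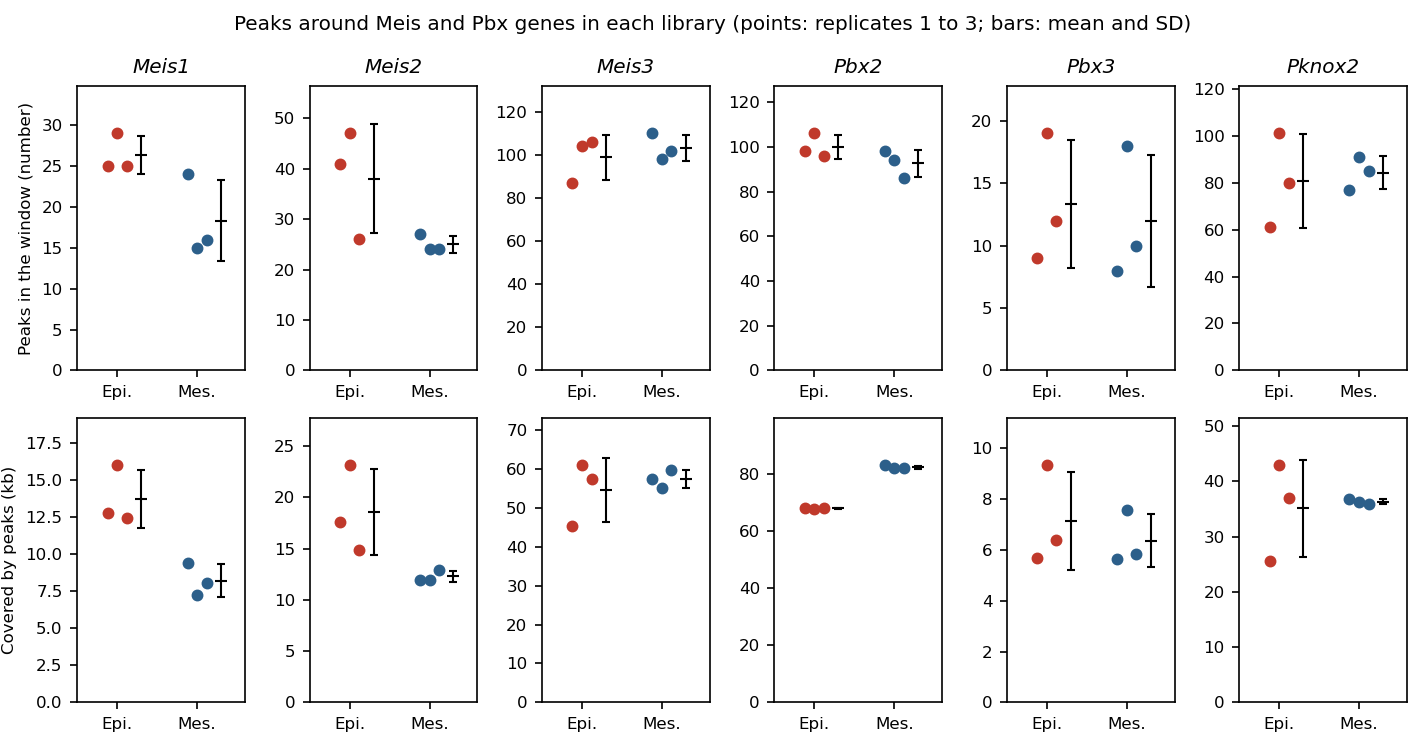
Number of peaks (upper row) and kb covered by peaks (lower row) in the window of each gene, with a point for each epithelium (Epi., red) and mesenchyme (Mes., blue) library and the mean ± SD beside them. Values are not scaled to the lists. Meis1 separates the tissues in both rows and Meis2 in covered kb (14.9 to 23.1 kb in epithelium, 11.9 to 12.9 kb in mesenchyme). In the Pbx2 window, where most regions lie nearest to other start sites, mesenchyme covers more kb with no more peaks.

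The windows of Meis1 and Meis2 were next divided into their regions. Meis1 had 29 kept regions, of which 4 (13.8%) were epithelium-only and none was mesenchyme-only. Meis2 had 41, of which 7 (17.1%) were epithelium-only and 1 was mesenchyme-only. More epithelium than mesenchyme libraries had a peak in 16 of the Meis1 regions (55.2%) and in 24 of the Meis2 regions (58.5%), against 24.7% of all kept regions. Of all 21911 genes, whose windows differ in length, 0.507% had at least as many epithelium-only regions as Meis2 and 3.39% at least as many as Meis1. Leaving out an epithelium library loosens the rule. Without epithelium 1, 2 or 3 there were 7, 5 or 7 such regions at Meis1 and 11, 8 or 14 at Meis2. Over the genome their number rose as well, from 10206 to 20576, 16145 or 20972.

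Of the 4 epithelium-only regions of Meis1, the widest lay in intron 9 at chr11:18897899-18899215, 120428 bp into the gene, and its peaks covered 1278, 1317 and 697 bp in epithelium libraries 1 to 3. The others were upstream, at -55337, -88382 and -93425 bp from the start site. The nearest of these, chr11:19074066-19074579, overlapped the noncoding gene 4933406G16Rik and was covered over 372, 384 and 458 bp. The others covered 309, 433 and 394 bp at chr11:19107145-19107590, and 401, 489 and 397 bp at chr11:19112166-19112654, the region with the MEIS letters. All 4 were thus open over at least 309 bp in each epithelium library while the mesenchyme lists held no peak there.

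The 7 epithelium-only regions of Meis2 were spread over the gene. There were 3 in intron 9, toward the 3′ end. The first, chr2:115872678-115873341, was covered over 535, 642 and 438 bp in the epithelium libraries. The second, chr2:115875812-115876659, was the broadest of the 7, with 723, 848 and 687 bp. The third, chr2:115919040-115919861, had 655, 822 and 550 bp. Nearer the start site, chr2:116045762-116046180 in intron 7 had 272, 419 and 346 bp and chr2:116055899-116056423 in intron 6 had 240, 525 and 448 bp. One region, chr2:115997650-115998079, fell in an exon of a Meis2 transcript with a retained intron and had 302, 250 and 430 bp. A single region was upstream, chr2:116095807-116096347 at -30238 bp, with 450, 478 and 462 bp. The mesenchyme-only region of Meis2, chr2:115959209-115959638 in intron 8, was covered over 290, 385 and 383 bp in the mesenchyme libraries. With peaks of at least 300 bp, 5 epithelium-only and no mesenchyme-only regions were left at Meis2. Together the 11 epithelium-only regions of both genes measured 419 to 1317 bp, 7 of them within the genes and 4 upstream, and none touched a start site.

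**Figure D2:**
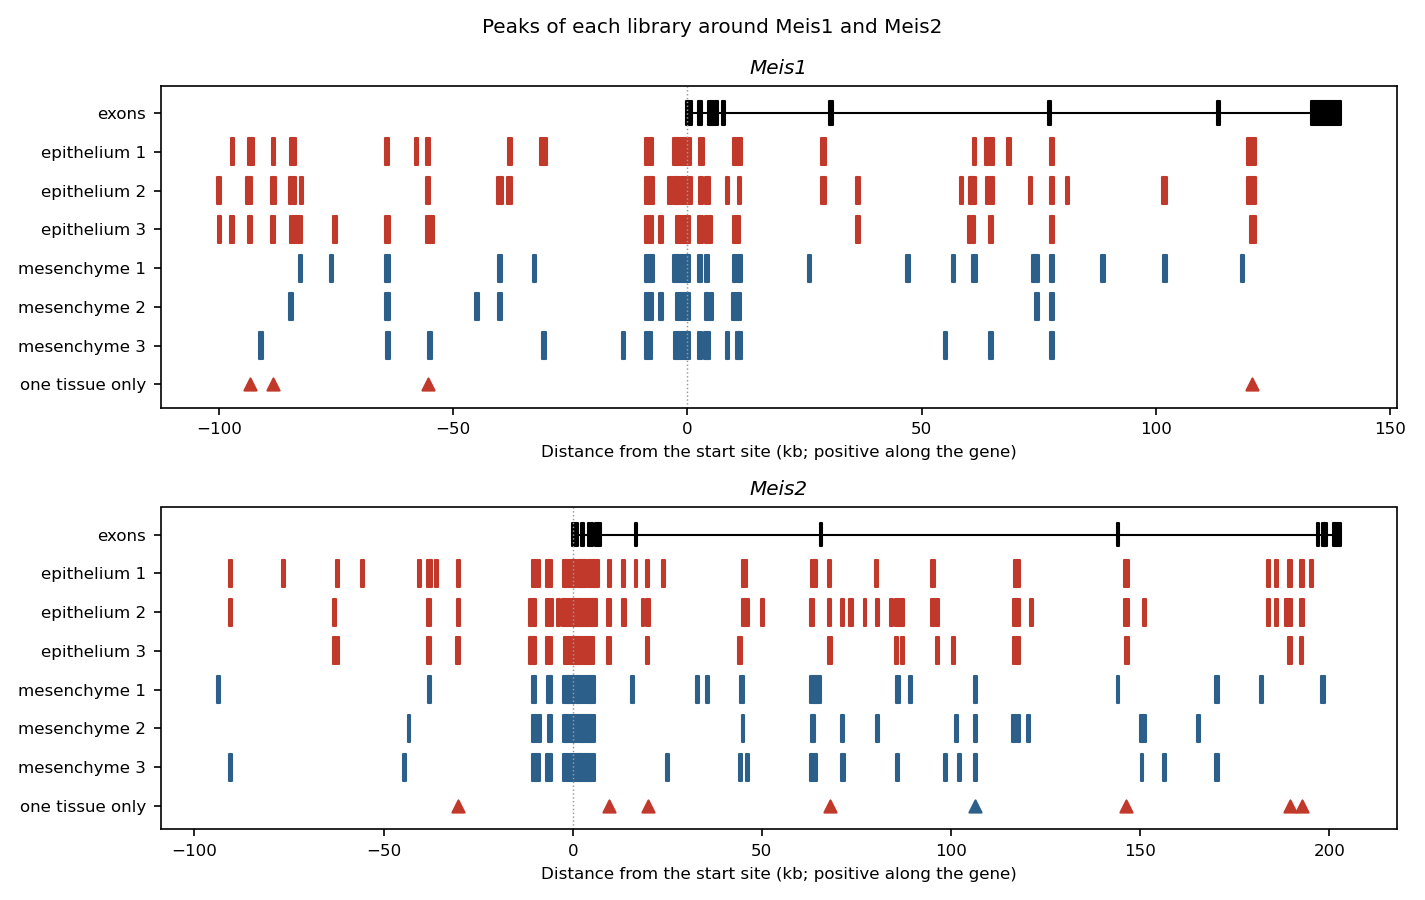
Peaks of each library along Meis1 and Meis2, with exons in black, epithelium peaks in red and mesenchyme peaks in blue against the distance from the start site in kb, and triangles at regions of one tissue only. Peaks and exons are drawn slightly wider than they are so that narrow ones can be seen. The start sites are open in all 6 rows, while the 4 and 7 red triangles lie away from them.

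Shared sequence was larger within a tissue than between tissues at these 2 genes. At Meis1 the Jaccard index of covered base pairs, the overlap divided by the union, averaged 0.448 among the epithelium libraries, 0.429 among the mesenchyme libraries and 0.309 between them. At Meis2 these means were 0.483, 0.431 and 0.298. At both genes the lowest pair within a tissue lay above the highest pair between tissues, 0.384 above 0.361 at Meis1 and 0.376 above 0.342 at Meis2. The share of all genes with such a separation was not counted, so it cannot be called particular to these genes. At the other 4 genes pairs within and between the tissues overlapped, and at Pknox2 the 3 means were nearly equal, 0.267, 0.264 and 0.261.

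Meis3 (ENSMUSG00000041420.18), known for patterning the hindbrain in frog and fish embryos, spans 16175090 to 16186504 of chromosome 7 on the plus strand, with 7 other start sites in its window. It had 87, 104 and 106 peaks in the epithelium libraries, against 110, 98 and 102 in the mesenchyme libraries. The groups overlapped, and the log2 difference was -0.00 ± 0.11 (SE, limma adjusted p = 0.99). The gene body itself held 7 peaks in every library. Of its 95 kept regions, 22 lay nearest to the Meis3 start site and 35 (36.8%) were found in all 6 libraries. Just 1 was epithelium-only, chr7:16080613-16081250 in an intron of Zfp541 and nearest to the start site of Napa. This region was lost with peaks of at least 300 bp.

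Pknox2 (ENSMUSG00000035934.16), also called Prep2, encodes a partner of Pbx proteins and lies on the minus strand of chromosome 9 from 36890982 to 37147407. It had 61, 101 and 80 peaks in the epithelium libraries, against 77, 91 and 85 in the mesenchyme libraries. The epithelium libraries spread on both sides of the mesenchyme range, and the log2 difference was -0.03 ± 0.12 (SE, limma adjusted p = 0.925). Of its 92 kept regions, 40 lay nearest to the Pknox2 start site. Found in all 6 libraries were 15 (16.3%), while 28 were found in more epithelium libraries and 28 in more mesenchyme libraries. Intron 2 held a region of each kind. The epithelium-only one, chr9:37074288-37074680, was covered over 199, 251 and 393 bp in the epithelium libraries. The mesenchyme-only one, chr9:37081815-37082475, was covered over 304, 320 and 213 bp in the mesenchyme libraries, and it no longer counted as mesenchyme-only when peaks were merged at an overlap of at least 100 bp.

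Pbx2 (ENSMUSG00000034673.14), a broadly expressed Pbx gene whose loss alone leaves mice viable, spans 34591266 to 34597400 of chromosome 17 on the plus strand, with 12 other start sites in its window. Of the 66 kept regions there, 1 lay nearest to the Pbx2 start site, so values of the window describe mostly the surroundings of other genes. The gene body held 4, 4 and 3 peaks in the epithelium libraries and 1, 1 and 1 in the mesenchyme libraries. These numbers were not set beside all genes. As given below, the start-site region was split into separate peaks in epithelium and was a single broad peak in each mesenchyme library. The window had 98, 106 and 96 peaks in the epithelium libraries, against 98, 94 and 86 in the mesenchyme libraries. The mean was 100 ± 5.29 in epithelium, against 92.7 ± 6.11 in mesenchyme (SD, n = 3 each). The single values overlapped, with a log2 difference of 0.17 ± 0.11 (SE, limma adjusted p = 0.429). Covered length ran the other way. Peaks covered 68.1, 67.7 and 67.9 kb in epithelium, against 82.9, 81.9 and 82.0 kb in mesenchyme. These unscaled values did not overlap, and the share of all genes without such overlap was not counted. After scaling to the covered length of each list the groups overlapped, with a log2 difference of -0.16 ± 0.09 (SE, limma adjusted p = 0.245). The mean peak was 680 ± 36.6 bp wide in epithelium, against 890 ± 56.1 bp in mesenchyme (SD, n = 3 each).

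The broader mesenchyme peaks could be seen at the Pbx2 start site. The region chr17:34588849-34596397, which also holds the start site of Gpsm3, was made up of 5, 4 and 4 peaks in the epithelium libraries, the widest of 2482, 4206 and 5176 bp, and of a single peak of 6286, 7050 and 7518 bp in the mesenchyme libraries. The covered base pairs of the tissues overlapped there, with a log2 difference of -0.03 ± 0.13 (SE, limma adjusted p = 0.959). The widest shared region of the window, chr17:34645377-34657895 over the start site of Atf6b, was covered over 7324, 7295 and 7919 bp in epithelium, against 10143, 9561 and 9375 bp in mesenchyme (limma adjusted p = 0.423). No Pbx2 region was epithelium-only. The mesenchyme-only one, chr17:34676636-34677103, lay in an intron of the neighbour Tnxb and was covered over 270, 467 and 364 bp in the mesenchyme libraries. It was lost with peaks of at least 300 bp.

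Pbx3 (ENSMUSG00000038718.15), which mice need to breathe after birth, lies on the minus strand of chromosome 2 from 34171457 to 34373142. It had the fewest peaks of the 6 genes, 9, 19 and 12 in the epithelium libraries against 8, 18 and 10 in the mesenchyme libraries. Library 2 was the highest within each tissue, as it was in list length, and the log2 difference was 0.21 ± 0.28 (SE, limma adjusted p = 0.741). Of 13 kept regions 2 were epithelium-only and none was mesenchyme-only. One of them, chr2:34355793-34356407 in intron 2, was covered over 388, 615 and 506 bp in the epithelium libraries. The other, chr2:34423871-34424320, lay in an intron of Mapkap1 and was close to the smallest peak width in the lists, with 199, 199 and 255 bp. Only 1 of the 2 was counted with peaks of at least 300 bp, and likewise with merging at an overlap of at least 100 bp.

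**Figure D3:**
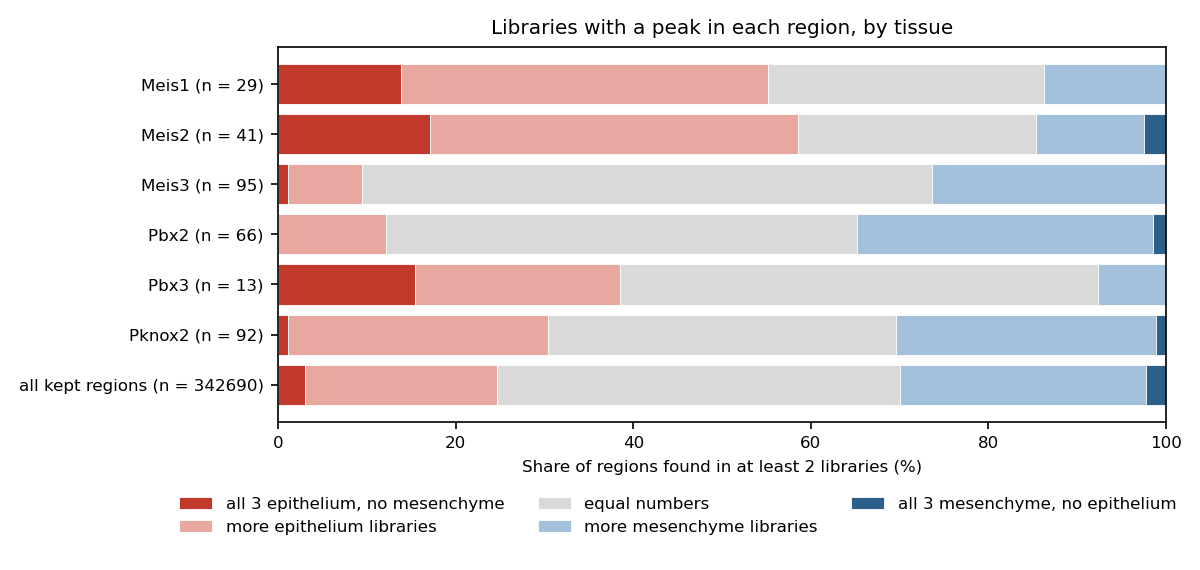
Share of kept regions in each window by the libraries that had a peak there, from all 3 epithelium and no mesenchyme library (dark red) to the reverse (dark blue), in percent, with all 342690 kept regions in the lowest bar. Regions with more epithelium libraries make up 55.2% at Meis1 and 58.5% at Meis2, against 24.7% of all kept regions.

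None of the 6 genes passed the test on the number of peaks in either direction. Over all genes, 1.49% had more and 1.65% had fewer peaks in epithelium at an adjusted p from limma under 0.05. Without adjustment limma gave 1616 genes with more and 2272 with fewer at a p under 0.05, Meis1 and Meis2 among those with more. The median log2 difference over the 6 genes was 0.19, and 4 of the 6 were above 0, with Meis1 and Meis2 the highest of the 6. Scaled to list length and window length, Pbx3 was the sparsest with 4.41 ± 1.11 peaks per 100 kb in epithelium and 3.84 ± 1.41 in mesenchyme. Meis1 followed with 11.3 ± 0.678 in epithelium and 7.64 ± 2.59 in mesenchyme, and Meis2 with 12.8 ± 3.42 in epithelium and 8.15 ± 1.13 in mesenchyme. Pknox2 had 22.9 ± 2.83 in epithelium, against 23.2 ± 0.378 in mesenchyme (each SD here has n = 3). Pbx2 (51.4 ± 4.71 in epithelium, 45.7 ± 5.24 in mesenchyme) and Meis3 (50.7 ± 4.66 in epithelium, 51.0 ± 6.71 in mesenchyme) were the densest. Over the 6 libraries the ranges of Meis1 and Meis2 overlapped, as did those of Pbx2 and Meis3, while the other neighbours in this order did not overlap.

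**Figure D4:**
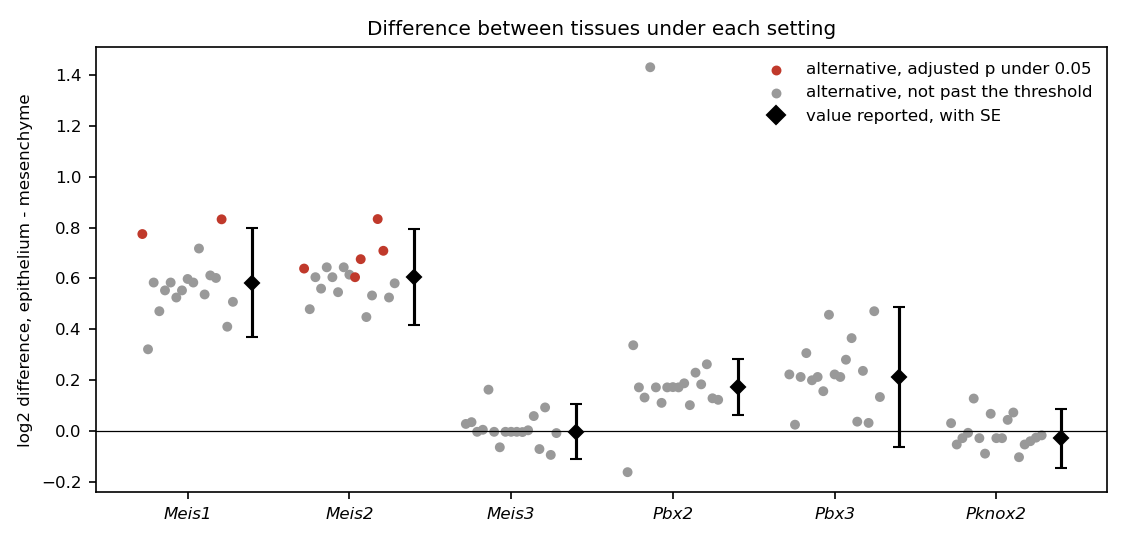
Log2 difference in the window of each gene, epithelium minus mesenchyme, as reported (diamond, with SE) and under each of 17 alternatives (points, red where the limma adjusted p was under 0.05). Meis1 and Meis2 stay above 0 throughout, and Meis3 and Pknox2 scatter around 0. The lone Pbx2 point at 1.43 (limma adjusted p = 0.0805) assigns each peak to the nearest start sites only.

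Each of the 6 genes had a start site in a region found in all 6 libraries, which except at Pbx2 was also the widest such region of its window. A further Pknox2 start site, at chr9:37137221-37137901, had a peak in only 2 epithelium and 2 mesenchyme libraries, over 681 and 199 bp in epithelium 2 and 3 against 239 and 478 bp in mesenchyme 2 and 3. At Meis2, which has start sites in 2 neighbouring regions, the outer one at chr2:116065101-116068203 was covered over 2958, 3040 and 2777 bp in epithelium, against 2436, 2508 and 2650 bp in mesenchyme. The groups did not overlap there, with a log2 difference of 0.32 ± 0.12 (SE, limma adjusted p = 0.381 over 65554 regions). The share of those regions without such overlap was not counted. The inner one, chr2:116060852-116064914, had 2046, 3496 and 3083 bp in epithelium, against 2520, 3400 and 3161 bp in mesenchyme, which overlapped. The start-site region of Meis1, chr11:19018371-19021827, was covered over 2689, 3250 and 2317 bp in epithelium, against 2480, 2513 and 2888 bp in mesenchyme (log2 difference 0.16 ± 0.14 SE, limma adjusted p = 0.711). That of Pbx3, chr2:34370900-34373945, was one peak in each library, of 2500, 2563 and 2439 bp in epithelium and 3046, 2542 and 2641 bp in mesenchyme. Those of Meis3 and Pknox2 overlapped between tissues too, at 2700 to 4170 bp in epithelium against 3104 to 4325 bp in mesenchyme for Meis3, and 3365 to 4290 bp against 3326 to 4089 bp for Pknox2.

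**Figure D5:**
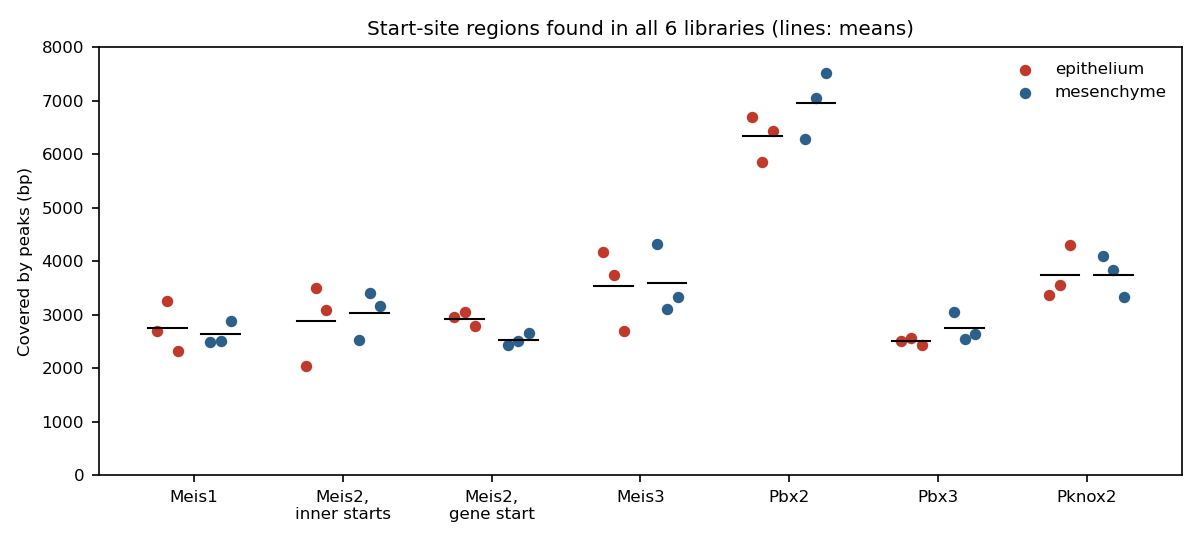
Base pairs covered by peaks in the start-site regions of the 6 genes found in all 6 libraries, for each epithelium (red) and mesenchyme (blue) library, with lines at the means. The outer start-site region of Meis2 (gene start) has 2777 to 3040 bp in epithelium and 2436 to 2650 bp in mesenchyme, and the others overlap between tissues. The share of all regions found in all 6 libraries without such overlap was not counted.

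Across the 86 regions of the 6 genes found in all 6 libraries, none passed the width test, for which 0.0% of the 65554 such regions of the genome passed by limma (smallest adjusted p 0.12). Without adjustment, 3844 of those were wider and 3674 narrower in epithelium at p under 0.05, 11.5% of all, and 4 wider and 3 narrower among the 86. No other tool was run for this test. The smallest adjusted p from limma among the 86 was 0.29, reached by an intronic region of Pknox2 at chr9:36916372-36917745 with 973, 1084 and 1317 bp in epithelium against 708, 673 and 649 bp in mesenchyme (log2 difference 0.83), and by 2 regions that were narrower in epithelium. One of these, chr9:37240441-37241259 in an intron of Slc37a2 in the Pknox2 window, had 199, 220 and 208 bp in epithelium against 370, 337 and 367 bp in mesenchyme (log2 difference -0.67). The other, chr17:34659037-34661794 between genes in the Pbx2 window, had 1534, 1314 and 1138 bp in epithelium against 2262, 2012 and 2346 bp in mesenchyme (log2 difference -0.63). In Pbx3 the intronic region chr2:34249419-34250330 had 871, 813 and 746 bp in epithelium against 440, 451 and 718 bp in mesenchyme (log2 difference 0.74 ± 0.32 SE, limma adjusted p = 0.436).

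RefSeq promoters, 250 bases before to 50 after the start, matched 4 of the 6 genes. Those of Meis2 and Pbx2 are printed along the gene, as the promoters with the lowest and the highest GC content of the 4. Both lie inside a merged region found in all 6 libraries. Over the Meis2 promoter itself epithelium 1 had no peak, while every other library did. The peaks of epithelium 1 ended at 0.738 kb and began again at 1.443 kb from the gene start. Capitals mark the TFAP2 letters.
Meis2 promoter, chr2:116064570-116064869: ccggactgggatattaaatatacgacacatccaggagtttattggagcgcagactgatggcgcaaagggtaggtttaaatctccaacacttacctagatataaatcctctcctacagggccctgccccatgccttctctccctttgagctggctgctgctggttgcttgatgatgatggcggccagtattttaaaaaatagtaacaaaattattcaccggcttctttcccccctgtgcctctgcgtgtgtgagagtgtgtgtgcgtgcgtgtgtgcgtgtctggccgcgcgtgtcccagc
Pbx2 promoter, chr17:34592009-34592308: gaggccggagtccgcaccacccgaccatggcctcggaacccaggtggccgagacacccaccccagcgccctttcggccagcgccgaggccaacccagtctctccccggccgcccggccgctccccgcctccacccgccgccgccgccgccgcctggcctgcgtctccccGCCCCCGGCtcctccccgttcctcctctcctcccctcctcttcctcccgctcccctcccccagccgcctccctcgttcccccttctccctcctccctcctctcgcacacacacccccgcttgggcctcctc

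The Meis2 promoter, on the minus strand, had a GC content of 51.0% with 13 CG pairs, and the Pbx2 promoter, on the plus strand, had 76.0% with 29. The Pbx2 promoter held the TFAP2 letters, found in 16.6% of 32851 RefSeq promoters of the same length, and the other 3 matched promoters held none of the motifs. The same motifs were searched on both strands in the middle 200 bp of the 336 regions. The MEIS letters were in 54 (16.1%), against 15.7% of all kept regions, and in 3 of the 15 epithelium-only regions, against 20.1% of all epithelium-only regions. Matches to the other motifs were found for HOX-PBX (3 regions, 0.893%, against 1.57%), GRHL (5, 1.49%, against 1.55%), TFAP2 (30, 8.93%, against 7.998%) and RUNX (13, 3.87%, against 4.56%), each beside the share of all kept regions. The joined PBX-MEIS site, TGAT followed directly by TGACAG, was in none of the 336 regions and in 0.102% of all. It contains the MEIS letters, and a match is a description of the letters only.

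Related genes were followed in the same way. Of 10 relatives, TALE homeobox genes of the Tgif, Irx and Mkx families and the Pbx-binding protein Pbxip1, none passed the test, and their median log2 difference was -0.02, the median over all genes being -0.02. Irx4, a factor of the heart ventricle, was the highest with 41, 45 and 43 peaks in epithelium against 30, 39 and 31 in mesenchyme (log2 difference 0.43 ± 0.16 SE, limma adjusted p = 0.122). Irx6 was the lowest with 19, 24 and 20 peaks in epithelium against 27, 30 and 27 in mesenchyme (log2 difference -0.34 ± 0.19 SE, limma adjusted p = 0.34). None of 8 Hox genes of paralog groups 1 to 3, whose proteins bind DNA with Pbx, passed either, with a median of -0.08 and values between -0.17 at Hoxb3 and 0.07 at Hoxd3. Their windows overlap within each cluster, so these are not independent values.

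Of 4 facial ectoderm genes placed downstream of Pbx in mouse work, Wnt3, Wnt9b, Trp63 and Snai1, 1 passed. Trp63, the regulator of stratified epithelium, had 29, 30 and 18 peaks in epithelium against 4, 16 and 8 in mesenchyme (log2 difference 1.57 ± 0.28 SE, limma adjusted p = 0.00101), and held 10 epithelium-only regions. The other 3 were below 0, the lowest being Snai1 at -0.18 (limma adjusted p = 0.344). Trp63 was also the only one of 10 epithelium markers that passed, and Prrx1, a factor of craniofacial mesenchyme, the only one of 8 mesenchyme markers, with 6, 16 and 14 peaks in epithelium against 23, 24 and 28 in mesenchyme (log2 difference -1.04 ± 0.25 SE, limma adjusted p = 0.0105). These 2 genes went with the tissue labels, but 4 of the 10 epithelium markers were below 0 and 3 of the 8 mesenchyme markers above 0. Krt8 and Krt18, both below 0, belong to the same keratin locus on chromosome 15, so their values are not independent. Sums over a list count a peak in each window that holds it. Cldn4, a tight junction gene, was the lowest epithelium marker with 86, 93 and 87 peaks in epithelium against 111, 121 and 113 in mesenchyme (log2 difference -0.31 ± 0.10 SE, limma adjusted p = 0.0873), and held no epithelium-only and 2 mesenchyme-only regions. Summed over each list, the epithelium markers had 573 to 675 peaks in epithelium and 568 to 671 in mesenchyme, and the mesenchyme markers 162 to 176 in epithelium and 196 to 199 in mesenchyme. No marker of endothelium, immune cells, muscle, nerve and glia or erythroid cells passed, and none had 0 peaks. The summed peaks of the 5 endothelium markers were 205 to 225 in epithelium and 229 to 256 in mesenchyme, and those of the 4 nerve and glia markers 231 to 252 in epithelium and 235 to 236 in mesenchyme. The 4 immune markers had 222 to 275 in epithelium and 254 to 292 in mesenchyme, the 3 muscle markers 141 to 184 in epithelium and 164 to 189 in mesenchyme, and the 3 erythroid markers 105 to 129 in epithelium and 115 to 129 in mesenchyme. The part of other cell types in the values of the 6 genes was not tested.

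The pattern of each gene over the 6 libraries was set beside that of all genes whose windows shared no base with its own, by the Pearson correlation of log2 scaled peak numbers. Meis1 was most like Dck, a deoxynucleoside kinase gene on chromosome 5 (r = 0.992), and Meis2 most like Vmn2r22, a vomeronasal receptor gene on chromosome 6 (r = 0.994). Meis3 was most like Dll1 (r = 0.985), Pbx2 like Gm13272 (r = 0.997), Pbx3 like A2m (r = 0.989) and Pknox2 like Krtap17-1 (r = 0.993). With 6 libraries that share list length and tissue, 30 to 91 genes had r over 0.95 with each of the 6, and no test was made.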

How the data were processed

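Peak lists of 3 epithelium and 3 mesenchyme libraries were taken as deposited. Per the methods of the study and the processing notes of the submitters, the authors used Trimmomatic 0.38 for trimming, Bowtie2 for alignment to mm10 and SAMtools to remove duplicates. They kept fragments under 100 bp and called peaks for each library with MACS2 2.1.1 without a model or local background. The notes also name deepTools 2.0. A peak threshold was not given in the sources used here. The deposited lists hold chromosome, start and end only, with no score or signal, so depth in reads is unknown and list length stands in for it.

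Peaks were assigned with GENCODE M21 on GRCm38.p6. Peak numbers per window were scaled to the mean list length and compared as log2(peaks + 1), which understates changes at genes with few peaks, with limma 3.58.1 in R 4.3.3 (mean trend, tissue only) over the 21723 genes that averaged 1 peak per library or more. The Benjamini-Hochberg adjustment was used at a threshold of 0.05. Covered length was scaled to the mean covered length of the lists and tested likewise as log2(kb + 1). Peaks overlapping by at least 1 bp were merged, and regions found in at least 2 libraries were kept. Covered base pairs of regions in all 6 libraries were compared as log2 values centred on the library median. Counting and motif searches used Python 3.11.15. Scripts were tested on simulated data. The authors compared read counts with DiffBind; reads were not used here.

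All 6 genes are named. From the lists of related genes, those past the threshold and the highest and lowest are named, with regions of one tissue, start-site regions, the widest shared regions and the most similar gene. One gene of these lists is not reported here. The 6 genes and the lists were chosen with earlier results of these data known. The libraries are labelled as biological replicates, and p-values refer to the spread between these libraries. In limma this spread is drawn toward that of genes or regions of similar mean. The SE and p of a gene thus do not rest on its own values alone. Alternatives covered scaling, thinning, pseudocount, filter, window, assignment, covered length, model, replicate block, merging, peak width, presence rule and each library left out.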

Additional observations from a re-analysis of the deposited data

How the results depend on the processing

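The log2 difference in peaks kept its sign in all 17 alternatives at Meis1, Meis2 and Pbx3. With every library it ranged at Meis1 between 0.32 and 0.78 (limma adjusted p between 0.00192 and 0.609) and at Meis2 between 0.48 and 0.68 (0.0039 to 0.312). At Pbx2 the range was widest, -0.163 to 1.43 (limma adjusted p between 0.0805 and 0.715). With one library left out the Pbx2 difference was 0.101 to 0.262. For the others, leaving out one library gave log2 differences between 0.41 and 0.83 at Meis1, 0.45 and 0.83 at Meis2, -0.095 and 0.092 at Meis3, and -0.104 and 0.072 at Pknox2. Small differences changed sign, as covered base pairs gave 0.027 at Meis3, 0.03 at Pknox2 and -0.163 at Pbx2. The 20 kb window (0.034) and thinned lists (0.004) turned Meis3, and nearest start sites turned Meis3 (0.162) and Pknox2 (0.127). Pknox2 also turned within 100 kb only (0.067), with same-chromosome scaling (0.043) and without epithelium 1, and Meis3 without epithelium 1, epithelium 2 or mesenchyme 1. None of these passed the threshold. Against 323 genes with more and 359 with fewer peaks in epithelium, covered base pairs gave 1364 and 1646, the 20 kb window 79 and 35, limma without a mean trend 4 and 0, nearest start sites 105 and 83, no filter 0 and 1, no scaling 31 and 16, and same-chromosome scaling 216 and 220. With one library left out the counts ranged from 151 to 283 and from 143 to 270. Deviations of same-numbered epithelium and mesenchyme libraries had correlations of 0.02, 0.05 and -0.01. With 3 libraries per tissue these values cannot decide whether the numbers pair the libraries. The replicate block gave 429 and 582 genes, and Meis2 at 0.61 with an adjusted p of 0.0416. Against 10206 epithelium-only and 7554 mesenchyme-only regions, letting in 1 library of the other tissue gave 19434 and 20486, and asking for at least 2 libraries of one tissue and none of the other gave 36109 and 38944. With one library left out they ranged from 12884 to 20972 and from 10667 to 20183. Under these presence rules Meis1 held 7 and 11 and Meis2 9 and 19 epithelium-only regions, against 4 and 7. Epithelium-only regions then numbered 1 and 3 at Meis3, 0 and 4 at Pbx2, 2 and 4 at Pbx3 and 2 and 12 at Pknox2, against 1, 0, 2 and 1. Mesenchyme-only regions numbered 0 and 1 at Meis1, 1 and 3 at Meis2, 4 and 7 at Meis3, 5 and 5 at Pbx2, 1 and 0 at Pbx3 and 7 and 7 at Pknox2, against 0, 1, 0, 1, 0 and 1. Merging at an overlap of at least 100 bp left 0 mesenchyme-only regions at Pknox2 and 1 epithelium-only region at Pbx3. With peaks of at least 300 bp Meis1 and Meis2 each held 5 epithelium-only regions, Pbx3 1, Pknox2 2 and Meis3 and Pbx2 none, and mesenchyme-only regions were left at Meis3 (2) and Pknox2 (1). No region passed the width test under any alternative. Depth limits every absence, since a peak under the threshold of the caller is not listed.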

Other observations

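The relatives that recruit corepressors, Tgif1 and Tgif2, named here after their values were seen, leaned to opposite tissues. Tgif1, a gene of forebrain and midface development, had 38, 48 and 45 peaks in the epithelium libraries against 29, 40 and 35 in the mesenchyme libraries (log2 difference 0.39 ± 0.16 SE, limma adjusted p = 0.157), and 4 of its 48 kept regions were epithelium-only and none mesenchyme-only. Tgif2 had 63, 79 and 76 peaks in epithelium against 82, 96 and 95 in mesenchyme (log2 difference -0.26 ± 0.11 SE, limma adjusted p = 0.195), and 4 of its 82 kept regions were mesenchyme-only and none epithelium-only. Neither passed the threshold, and the difference between the 2 genes was not tested.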
